A study of Mus musculus with 10 samples.

Results

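The genes described here encode proteins with which phagocytes bind and take up dying cells and debris. They are the bridging molecules *Gas6* and *Mfge8*, the receptor kinases *Mertk* and *Axl*, and the scavenger receptors *Lrp1*, *Msr1*, *Scarb1*, *Olr1* and *Marco*. They were taken by gene symbol from the deposited count table, which held all 9 of them among 55487 genes. Of the 9, 8 passed the filter on low counts (counts per 1000000 counts, CPM, above 1 in at least 3 libraries), as did 13740 genes of the whole table, and *Marco* did not. The bulk RNA-seq libraries came from the spinal cords of 5 young adult male C57BL/6 mice, called m2, m6, m234, m235 and m236, that carried the Arg1tm1Lky allele. In these mice the *Arg1* promoter drives a yellow fluorescent protein (YFP), so that the sort followed promoter activity and not ARG1 protein. All animals had experimental autoimmune encephalomyelitis (EAE), induced by immunization with a myelin peptide, and were taken at peak disease. Viable Ly6G-CD3-CD45+CX3CR1+ cells were sorted from each animal into 200000 YFP+ (ARG1+) and 100000 YFP- (ARG1-) cells, which gave 5 libraries per group. There were no unimmunized animals, and the gate did not separate monocyte-derived cells from resident macrophages of the central nervous system.

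Clearance of dying cells, called efferocytosis, starts when phosphatidylserine appears on the outer face of the dying cell. GAS6 links this lipid to the TAM receptor kinases, among them AXL and MERTK, and MFGE8 links it to integrins of the phagocyte. Scavenger receptors bind modified lipoproteins, lipids and debris, and in demyelinating lesions macrophages take up large amounts of lipid-rich myelin.

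*Arg1* checked the sort, and its level averaged 813 ± 174 CPM in the 5 ARG1+ libraries against 18.4 ± 4.95 CPM in the 5 ARG1- libraries (± SD throughout). Library totals ranged from 28870482 to 33826355 counts in ARG1+ and from 8396863 to 35455643 counts in ARG1- cells, with the lowest total in the ARG1- library of m234. Of 8 markers of the macrophage and myeloid gate, all 8 passed the filter, whereas none of the 6 T cell, 5 NK cell or 5 fibroblast and mural cell markers did. The summed level of the 8 gate markers was 15200 to 19500 CPM in ARG1+ and 13600 to 15700 CPM in ARG1- libraries and higher in the ARG1+ library of all 5 animals, and *Lyz2* (log2 fold change 0.65, FDR 0.00764) and *Itgam* (0.35, FDR 0.0385) were called higher. *Cx3cr1*, on which the cells were gated, had a log2 fold change of -1.01 (FDR 0.153, and 9.24e-05 with the animal as a block). With the block, 3 of the 8 were higher and 4 lower, beside 16.8% and 18.3% of all tested genes. Without the block, 6.82% of all tested genes were called higher and 6.15% lower. The summed level of 10 microglia markers was 775 to 1200 CPM in ARG1+ and 853 to 3290 CPM in ARG1- libraries, and lower in the ARG1+ library of all 5 animals, although none of the 10 passed the test (8 were lower with the animal as a block). Its highest value was in the ARG1- library of m234, the shallowest one. The summed level of 9 border-associated macrophage markers was 905 to 1730 CPM in ARG1+ and 474 to 1060 CPM in ARG1- libraries, and higher in the ARG1+ library of all 5 animals, although 4 of them (*Cd163*, *Lyve1*, *Cbr2* and *Folr2*) were below the filter and 3 of the 5 tested were called higher. *F13a1* made up most of this sum (mean 1019 CPM in ARG1+ and 594 in ARG1- cells). It did not pass the test (FDR 0.0511, and 1.62e-05 with the block). Sums of 10 dendritic cell markers were 16.5 to 34.2 CPM in ARG1+ and 36.4 to 69.4 CPM in ARG1- libraries, those of 6 B cell markers 4.33 to 11.7 and 15.9 to 47.0 CPM, and both were lower in the ARG1+ library of all 5 animals, with 5 of 7 and 1 of 2 tested markers called lower. Among the called dendritic cell markers, *Flt3* (mean 0.289 CPM) and *Zbtb46* (0.457 CPM) were near the floor in ARG1+ cells. The summed level of 8 monocyte markers was 12100 to 15900 CPM in ARG1+ and 8260 to 13100 CPM in ARG1- libraries. Each of the 5 animals had the larger sum in its ARG1+ cells. Most of this sum came from *Fn1* (mean 9196 CPM in ARG1+ and 6680 in ARG1- cells) and *Chil3* (3536 and 2793.5 CPM). Without the block, 4 of the 8 markers were called lower and none higher. With the block, 5 were lower and 3 higher, namely *Fn1* (FDR 7.93e-04), *Chil3* (FDR 0.00132) and *Hp* (FDR 0.0217). The sum of 8 neutrophil markers (131 to 321 CPM in ARG1+ and 64.7 to 185 CPM in ARG1- libraries) was higher in the ARG1+ library of all 5 animals, but 5 of the 8 were below the filter, *Mmp8* made up most of the sum, and the only marker called, *S100a9*, was lower (log2 fold change -3.40, FDR 0.00977). *S100a9* was near the floor in ARG1+ cells (mean 0.242 CPM) and varied widely in ARG1- cells (2.44 ± 2.53 CPM). The sum of 6 astrocyte markers (18.4 to 28.5 and 22.3 to 31.95 CPM) was lower in all 5 animals, whereas the only one called, *Gja1*, was higher (1.18, FDR 0.00443). That of 5 endothelial markers (186 to 293 and 250 to 447 CPM) was lower in all 5 animals, with *Flt1* as the only one called (-0.47, FDR 0.0370). The most abundant endothelial marker, *Ly6c1* (mean 135 and 205 CPM), did not pass (FDR 0.169, and 1.69e-05 with the block). Oligodendrocyte sums (147 to 180 and 137 to 197 CPM) were higher in 4 animals, and none of 5 tested markers was called. The part of these cell types in the results below was not tested, and in bulk RNA a change in the share of a cell type and a change in RNA per cell cannot be told apart.

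*Mfge8*, *Lrp1* and *Mertk* were higher in ARG1+ than in ARG1- cells by edgeR's quasi-likelihood test, at a Benjamini-Hochberg false discovery rate (FDR) below 0.05 over all tested genes. None of the 8 tested genes was called lower in this fit, which did not use the pairing of libraries by animal. Without the ARG1- library of m234 the same number, 3, was called. These 3 of 8 stood against a background of 6.82% of all tested genes called higher and 6.15% called lower. *Mfge8* had the largest change, with a fold of 2.00, and passed the stricter limit of an absolute log2 fold change above 1 as well, which 1.45% of all genes did, although its log2 fold change of 1.00003 lay at that limit. The ARG1+ and ARG1- libraries of *Mfge8* and *Lrp1* did not overlap, which held for 11.3% of all tested genes. The median log2 fold change of the 8 genes was 0.185, beside -0.00222 over all tested genes. *Axl*, *Gas6*, *Msr1*, *Scarb1* and *Olr1* did not pass the test. With the animal as a replicate block, which uses the pairs of libraries from the same mouse, 4 of the 8 were higher and 2 lower, against 16.8% and 18.3% of all genes. *Msr1* joined the higher genes, and *Axl* and *Gas6* were the lower ones.

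**Figure D1:**
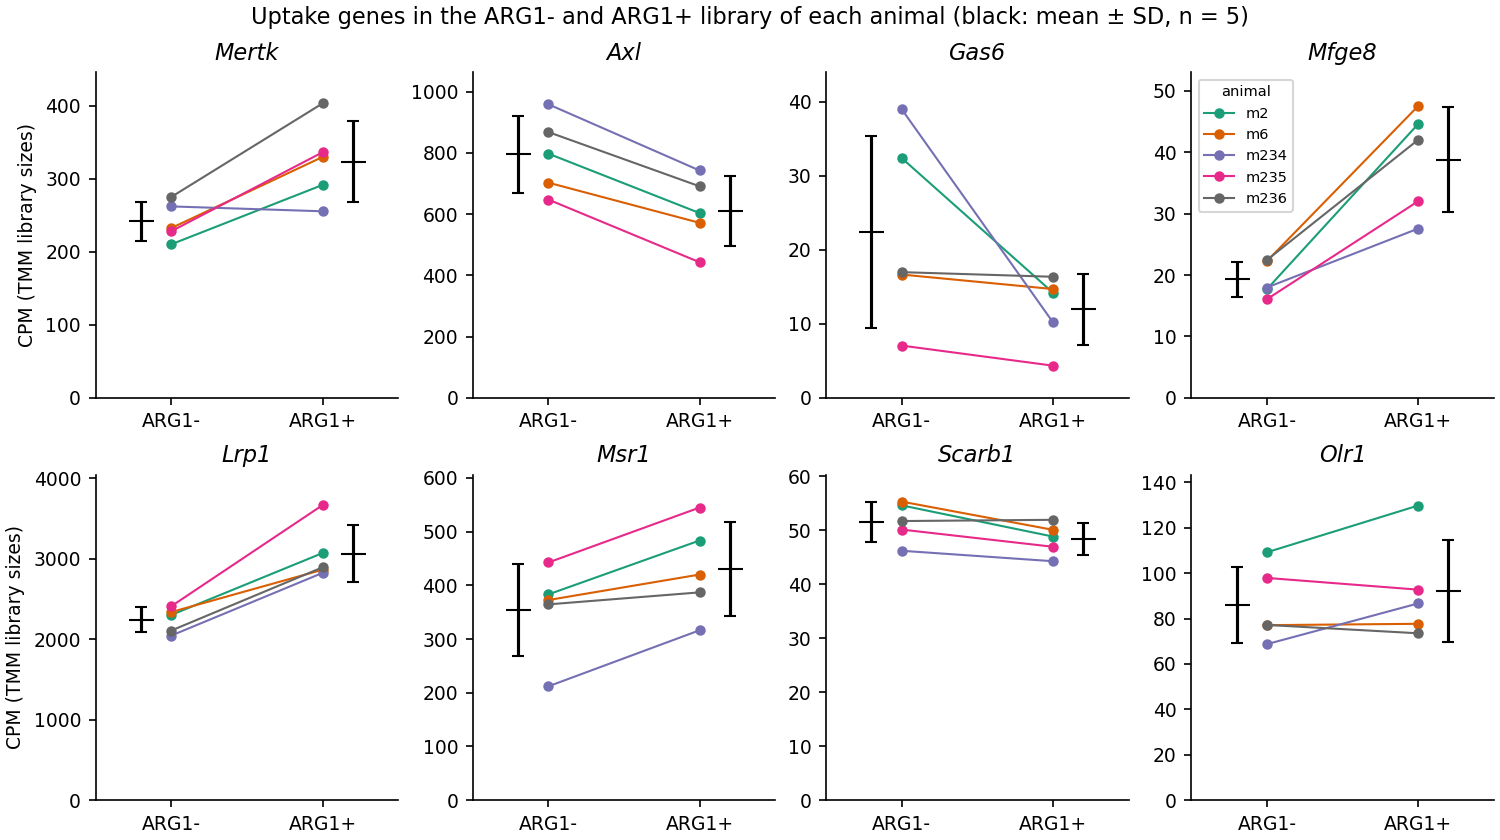
Level of each tested gene in CPM (y axis) in the ARG1- and ARG1+ library of each animal (points joined by a line, 1 colour per animal), with the mean ± SD of 5 libraries in black. *Mfge8* and *Lrp1* rise in every animal without overlap of the groups, *Axl* has a lower level in the ARG1+ library of every animal although the groups overlap, and *Mertk* is not higher in m234.

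**Figure D2:**
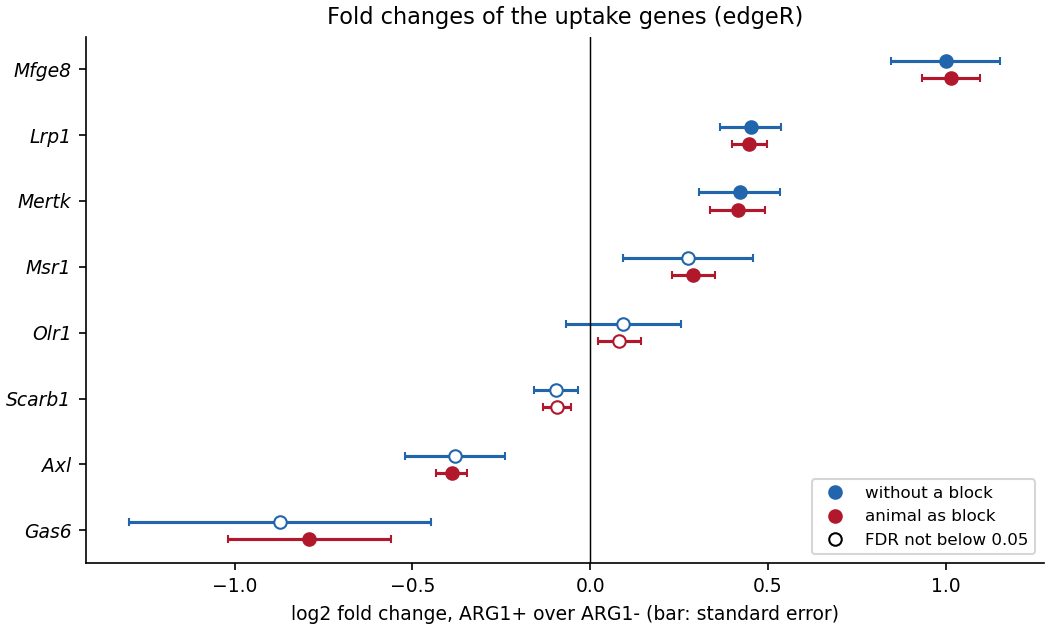
Log2 fold change of ARG1+ over ARG1- cells (x axis) with its standard error for the 8 tested genes, from edgeR without a block (blue) and with the animal as a block (red), with open symbols for an FDR of 0.05 or more. The estimates of both fits lie close together for each gene, and the standard errors are smaller with the block, where *Axl*, *Gas6* and *Msr1* pass as well.

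The sequences upstream of 5 genes that passed the test with or without the block are shown, because the windows of *Mfge8*, *Lrp1* and *Mertk*, which rose together, can then be read against those of *Axl* and *Gas6*, which had lower levels in ARG1+ cells. Each is the RefSeq sequence of GRCm38.p6, 5′ to 3′ on the strand of the gene, over the 250 bases before the RefSeq start, and capitals mark GC boxes (GGGCGG on either strand). The *Mfge8* window is chr7:79149061-79149310 on the reverse strand, that of *Lrp1* chr10:127621149-127621398 on the reverse strand and that of *Mertk* chr2:128698665-128698914 on the forward strand. The *Axl* window is chr7:25788734-25788983 and the *Gas6* window chr8:13494536-13494785, both on the reverse strand.
Mfge8: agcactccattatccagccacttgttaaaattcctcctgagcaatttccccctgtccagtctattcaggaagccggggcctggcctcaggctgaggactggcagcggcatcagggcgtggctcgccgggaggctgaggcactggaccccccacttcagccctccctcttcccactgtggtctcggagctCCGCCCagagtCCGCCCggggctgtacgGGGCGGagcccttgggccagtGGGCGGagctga
Lrp1: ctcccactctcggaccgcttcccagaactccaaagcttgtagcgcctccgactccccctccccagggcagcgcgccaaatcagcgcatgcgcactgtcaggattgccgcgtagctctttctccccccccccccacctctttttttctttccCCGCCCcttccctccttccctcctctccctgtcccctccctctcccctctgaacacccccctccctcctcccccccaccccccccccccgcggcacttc
Mertk: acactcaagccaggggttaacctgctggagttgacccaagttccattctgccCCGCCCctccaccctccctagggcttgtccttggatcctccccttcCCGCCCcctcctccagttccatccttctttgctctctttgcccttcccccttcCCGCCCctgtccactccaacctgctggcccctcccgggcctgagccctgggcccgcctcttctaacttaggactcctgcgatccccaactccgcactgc
Axl: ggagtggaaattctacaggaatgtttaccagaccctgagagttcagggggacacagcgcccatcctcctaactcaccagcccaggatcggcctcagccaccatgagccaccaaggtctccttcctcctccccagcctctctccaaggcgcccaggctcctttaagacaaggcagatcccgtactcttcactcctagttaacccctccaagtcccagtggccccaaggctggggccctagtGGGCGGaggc
Gas6: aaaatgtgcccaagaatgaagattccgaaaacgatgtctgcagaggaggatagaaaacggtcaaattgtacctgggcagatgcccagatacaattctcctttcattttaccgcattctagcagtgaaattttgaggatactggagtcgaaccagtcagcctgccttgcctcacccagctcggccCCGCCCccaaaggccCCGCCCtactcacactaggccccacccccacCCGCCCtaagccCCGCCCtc

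The table of promoters held 7 of the 9 genes, without *Msr1* and *Scarb1*. The share of G and C in the 5 windows shown ran from 54.8% in *Gas6* to 67.2% in *Lrp1*. The median over 32851 promoters was 52.4%, so that the *Gas6* window lay close to it. A GC box occurred in each of them, as in 32.7% of all promoters, with 4 in *Mfge8*, 4 in *Gas6*, 3 in *Mertk* and 1 each in *Lrp1* and *Axl*. The letters GAGGAA, the core of sites of the myeloid factor PU.1, were found on either strand once in *Mfge8* and once in *Axl*, and in 23.3% of all promoters. None of the 5 windows held TATAAA (12.4% of promoters), CCAAT (33.8%), the nuclear receptor site AGGTCA (14.0%) or the AP-1 site TGANTCA (6.75%) on either strand. A motif present in all 5 windows or in none of them could not separate the genes that rose from *Axl* and *Gas6*. The only other motif, GAGGAA, occurred in a gene of each kind. The RefSeq start lay 41 bases from the gene start given with the counts in *Mertk*, 28 in *Axl* and 45 in *Gas6*.

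Among the bridging molecules, *Mfge8* encodes a secreted protein that binds phosphatidylserine on dying cells and integrins on the phagocyte. The gene lies on the reverse strand of chromosome 7 from 79133768 to 79149060 (GRCm38, as are all gene positions here) and has 10 exons in the merged annotation. Its level in ARG1+ cells was 44.6 CPM in m2, 47.5 in m6, 27.6 in m234, 32.02 in m235 and 42.0 in m236. In ARG1- cells it was 17.7 CPM in m2, 22.3 in m6, 18.0 in m234, 16.1 in m235 and 22.5 in m236. All ARG1+ libraries thus lay above all ARG1- libraries, and m234 had the smallest difference. The means were 38.7 ± 8.55 and 19.3 ± 2.90 CPM (SD, n = 5), a log2 fold change of 1.00003 (standard error, SE, 0.154, FDR 0.00202). The ratio of ARG1+ to ARG1- within an animal ran from 1.53 to 2.52. With each library, or both libraries of an animal, left out in turn, the FDR stayed at or below 0.0218.

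*Gas6* encodes the vitamin K-dependent bridge between phosphatidylserine and the TAM receptors, and lies on the reverse strand of chromosome 8 from 13465374 to 13494490. Its level in ARG1+ cells was 14.2 CPM in m2, 14.7 in m6, 10.2 in m234, 4.36 in m235 and 16.4 in m236. In ARG1- cells it was 32.4 CPM in m2, 16.7 in m6, 39.0 in m234, 7.07 in m235 and 17.0 in m236. The groups overlapped, and the ARG1- libraries of m2 and m234 stood above all others. The ARG1+ library was the lower one in all 5 animals, but the ratio within an animal ranged from 0.262 in m234 to 0.963 in m236. The means of 11.97 ± 4.82 and 22.4 ± 12.97 CPM (SD, n = 5) gave a log2 fold change of -0.87 (SE 0.424), which did not pass the test (FDR 0.190). With the animal as a block it was -0.79 (SE 0.230, FDR 0.0233). The microglia marker sum was also highest in the ARG1- libraries of m234 (3289 CPM) and m2 (1599 CPM), against 775 to 1291 CPM in the other 8 libraries, and its part in the *Gas6* difference was not tested.

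The TAM receptor *Mertk* encodes a kinase that drives engulfment of dying cells by macrophages, and lies on the forward strand of chromosome 2 from 128698956 to 128802894. In ARG1+ cells its level was 292 CPM in m2, 329.9 in m6, 256 in m234, 336 in m235 and 403 in m236. In ARG1- cells it was 210.3 CPM in m2, 233 in m6, 262 in m234, 228 in m235 and 275 in m236. The ARG1+ library was higher in 4 of 5 animals, and in m234 the order was the other way round, so that the groups overlapped. The means were 323 ± 55.2 and 242 ± 26.4 CPM (SD, n = 5), a fold of 1.34 and a log2 fold change of 0.42 (SE 0.115, FDR 0.0327). The animal ratios of 4 mice lay between 1.39 and 1.47, and that of m234 was 0.975. With the animal as a block the log2 fold change was 0.41 (SE 0.0775, FDR 0.00266).

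Without the block, the call of *Mertk* depended on single libraries. The fit with the block was not repeated with libraries left out. Leaving out an ARG1+ library raised the FDR to 0.0700 (m6), 0.0589 (m235) or 0.0647 (m236), and leaving out an ARG1- library raised it to 0.0738 (m2), 0.0727 (m6) or 0.0570 (m235). Leaving out both libraries of an animal raised it to 0.102 (m2), 0.137 (m6), 0.0943 (m235) or 0.0543 (m236). Without both libraries of m234, the animal in which *Mertk* was not higher, the log2 fold change was 0.52 and the FDR 0.0137. The log2 fold change stayed between 0.33 and 0.52 in all 15 of these fits.

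*Axl*, the TAM receptor that binds GAS6 and is induced in inflamed macrophages, lies on the reverse strand of chromosome 7 from 25757273 to 25788705. In ARG1+ cells its level was 603 CPM in m2, 572 in m6, 742 in m234, 443 in m235 and 691 in m236. The ARG1- libraries held 797 CPM in m2, 703 in m6, 959 in m234, 647 in m235 and 868 in m236. The ARG1+ library was lower in all 5 animals, whereas animals differed so much from each other that the groups overlapped. The means of 610.2 ± 116 and 795 ± 125 CPM (SD, n = 5) gave a log2 fold change of -0.38 (SE 0.140), with an FDR of 0.0926. The ratio within an animal was narrow, from 0.684 to 0.813, and with the animal as a block the log2 fold change was -0.39 (SE 0.0434, FDR 1.24e-04). DESeq2 without a block also placed *Axl* below the limit (FDR 0.0438).

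Since *Mertk* and *Axl* had levels that differed in opposite directions, their ratio per length of exon was taken within each library as a description. In ARG1+ cells *Mertk* over *Axl* was 0.481 in m2, 0.575 in m6, 0.343 in m234, 0.756 in m235 and 0.581 in m236. In ARG1- cells it was 0.263 in m2, 0.330 in m6, 0.272 in m234, 0.351 in m235 and 0.316 in m236. The ratio was higher in the ARG1+ library of every animal, and the groups overlapped only because the ARG1+ library of m234 lay just under the ARG1- library of m235. *Axl* stayed the more abundant of the pair per length in all 10 libraries. The ratio of *Axl* to its ligand *Gas6* per length ran from 23.1 to 60.5 in ARG1+ and from 14.6 to 54.5 in ARG1- libraries, with no single order of the groups.

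**Figure D3:**
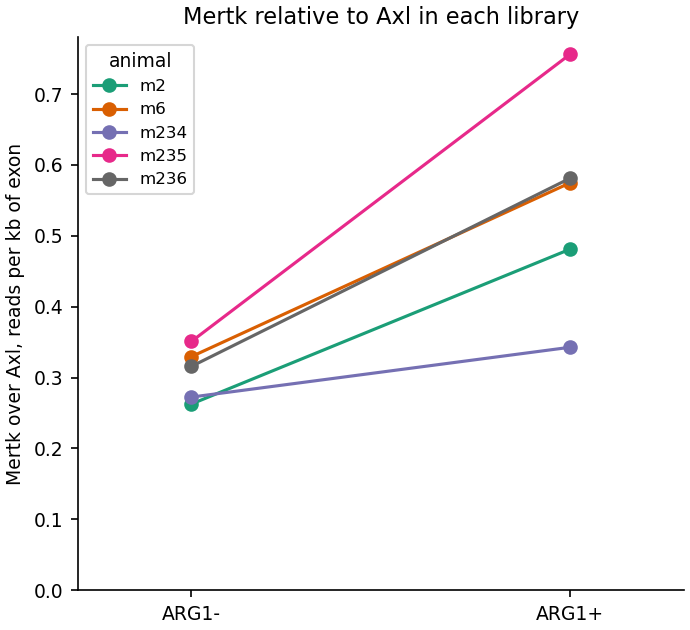
Ratio of *Mertk* to *Axl*, in reads per kilobase of exon, in the ARG1- and ARG1+ library of each animal (points joined by a line). The line rises in all 5 animals, least in m234 (0.272 to 0.343) and most in m235 (0.351 to 0.756), and stays below 1 throughout. In m234 the rise comes from *Axl* alone.

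*Lrp1* encodes a large endocytic receptor that takes up lipoproteins, protease complexes and myelin debris. It lies on the reverse strand of chromosome 10 from 127538161 to 127621148 and has 90 exons in the merged annotation. In ARG1+ cells its level was 3068 CPM in m2, 2861 in m6, 2822 in m234, 3663 in m235 and 2891 in m236. The ARG1- libraries had 2299.8 CPM in m2, 2336 in m6, 2044 in m234, 2408 in m235 and 2106 in m236. The lowest ARG1+ library exceeded the highest ARG1- library, and m235 was the highest animal in both groups. The means were 3061 ± 350 and 2239 ± 156 CPM (SD, n = 5), a fold of 1.37 and a log2 fold change of 0.45 (SE 0.0862, FDR 0.00645). The animal ratios ran from 1.22 to 1.52, and the FDR stayed at or below 0.0382 with each library or animal left out.

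*Msr1*, the class A scavenger receptor that binds modified lipoproteins, lies on the reverse strand of chromosome 8 from 39581685 to 39642673. Its level in ARG1+ cells was 483 CPM in m2, 420.1 in m6, 316 in m234, 545 in m235 and 387 in m236. In ARG1- cells it was 383 CPM in m2, 373 in m6, 212 in m234, 442 in m235 and 365 in m236. Animals differed more from each other than the groups did, and the ARG1+ library was the higher one in all 5 animals. The means of 430.3 ± 87.9 and 355 ± 85.6 CPM (SD, n = 5) gave a log2 fold change of 0.28 (SE 0.183, FDR 0.336). With the animal as a block it was 0.29 (SE 0.0616, FDR 0.00512), and the animal ratios ran from 1.06 to 1.49.

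*Scarb1*, a receptor for high-density lipoprotein that also binds phosphatidylserine, lies on the reverse strand of chromosome 5 from 125277087 to 125341094 and varied little between libraries. Its level was 48.8, 50.05, 44.2, 46.9 and 51.9 CPM in the ARG1+ and 54.6, 55.3, 46.2, 50.1 and 51.7 CPM in the ARG1- libraries of m2, m6, m234, m235 and m236. The ARG1+ library was lower in 4 of 5 animals, and the groups overlapped. Its log2 fold change of -0.096 (SE 0.0626) did not pass without the block (FDR 0.330) or with it (FDR 0.0968).

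*Olr1* encodes the lectin-like receptor for oxidized LDL and lies on the reverse strand of chromosome 6 from 129485244 to 129507165. Its level was 129.8, 77.7, 86.7, 92.7 and 73.5 CPM in the ARG1+ and 109, 77.1, 68.7, 97.9 and 77.2 CPM in the ARG1- libraries of m2, m6, m234, m235 and m236. Both libraries of m2 were the highest of their group, and 3 animals had the higher and 2 the lower level in ARG1+ cells. The log2 fold change was 0.093 (SE 0.162, FDR 0.740) and 0.082 with the block (FDR 0.330). Without the ARG1+ library of m2 it was -0.062 (FDR 0.811), so that no direction can be given for *Olr1*.

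*Marco*, a class A scavenger receptor of tissue macrophages on chromosome 1 from 120474538 to 120505024 (reverse strand), was at or near 0 in all libraries. The ARG1+ libraries of m6, m234 and m236 held 1, 2 and 1 counts, the other ARG1+ libraries 0, and all ARG1- libraries 0. The highest level was 0.0645 CPM, and 3 counts over the ARG1- group, the limit that a count of 0 allows, correspond to 0.0223 CPM. A 2-sided exact permutation test of log2 CPM gave p = 0.167, the smallest p that reads in 3 of 10 libraries allow, so the test could not pass. A difference in *Marco* was not detectable at this depth.

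Levels of different genes can be compared only per length, here as CPM per kilobase of merged exons (RPKM). In ARG1+ cells *Lrp1* came first with 188 ± 21.4 RPKM (SD, n = 5), followed by *Axl* with 142 ± 27.0, *Msr1* with 107 ± 21.9 and *Mertk* with 75.2 ± 12.8. *Olr1* (25.8 ± 6.26), *Scarb1* (19.2 ± 1.17) and *Mfge8* (18.2 ± 4.02) were lower, and *Gas6* was lowest of the tested genes with 4.70 ± 1.89 RPKM. Neighbours overlapped between libraries throughout this order except *Mertk* with *Olr1* and *Mfge8* with *Gas6*.

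In ARG1- cells *Axl* came first with 186 ± 29.1 RPKM (SD, n = 5) and *Lrp1* second with 137 ± 9.58, without overlap of their libraries. *Msr1* (88.6 ± 21.4), *Mertk* (56.2 ± 6.14), *Olr1* (24.1 ± 4.71) and *Scarb1* (20.5 ± 1.46) kept their places. *Mfge8* (9.07 ± 1.36) and *Gas6* (8.80 ± 5.09) came last and overlapped each other. In this group the other neighbours that overlapped were *Msr1* with *Mertk* and *Olr1* with *Scarb1*. *Lrp1* and *Axl* thus changed places between the groups, and the gap of *Mfge8* over *Gas6* was present in ARG1+ but not in ARG1- cells. With the longest transcript as the length, the libraries of *Lrp1* and *Axl* overlapped in ARG1- but not in ARG1+ cells.

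**Figure D4:**
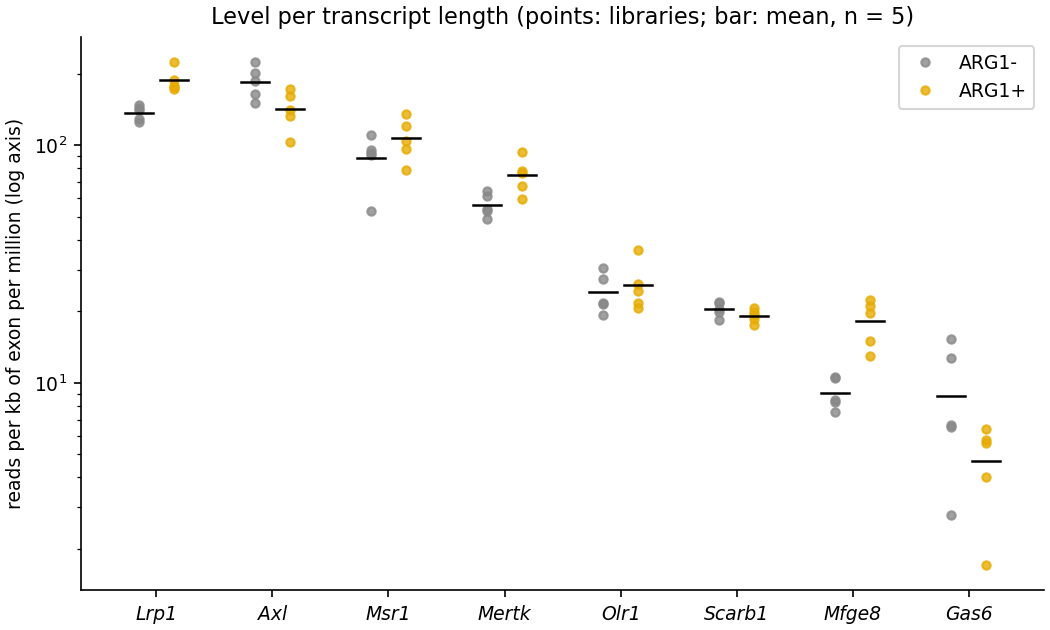
Level in reads per kilobase of exon, scaled as CPM (RPKM; y axis, logarithmic) of the 8 tested genes in each ARG1- (grey) and ARG1+ (yellow) library, with the mean of 5 libraries as a bar. *Lrp1* (188 RPKM) leads in ARG1+ and *Axl* (186 RPKM) in ARG1- cells, and *Gas6* has the lowest mean in both.

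The other genes of the uptake pathway were read from lists with the same fit. Over all tested genes, 6.82% were called higher and 6.15% lower, and 16.8% and 18.3% with the animal as a block. Of 4 other TAM receptors, ligands and sheddases, 3 were tested and none passed, with a median log2 fold change of -0.025. *Adam17*, which sheds the outer part of MERTK and AXL from the cell, was the most abundant of them with 352 ± 21.1 in ARG1+ against 359 ± 17.4 CPM in ARG1- cells (n = 5). *Tyro3*, the remaining TAM receptor, was below the filter.

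Of 18 other phosphatidylserine receptors and bridges, 14 were tested, 2 rose and 1 fell, with a median log2 fold change of 0.175. *Stab1*, a scavenger receptor that binds phosphatidylserine, rose by 0.62 on the log2 scale (SE 0.0942, FDR 0.00195), from 547 ± 49.8 to 839 ± 108 CPM (SD, n = 5). *Anxa1*, a phospholipid-binding annexin that limits inflammation, rose by 0.61 (FDR 0.0318). *Havcr2*, which encodes the phosphatidylserine receptor TIM-3, fell by 0.59 (FDR 0.00184), from 113 ± 15.7 to 75.1 ± 5.71 CPM (SD, n = 5). *Thbs1*, a secreted bridge between dying cells and integrins, was the most abundant and did not pass (log2 fold change 0.13, FDR 0.472). With the animal as a block, 7 of the 14 were higher and 2 lower, beside 16.8% and 18.3% of all tested genes.

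The engulfment machinery, which turns receptor binding into movement of actin and membrane, had 16 of 18 genes tested, of which 3 rose and 2 fell, with a median log2 fold change of 0.0024. *Abca1*, the cholesterol exporter that also moves phospholipid to the outer leaflet, rose by 0.73 on the log2 scale (SE 0.0721, FDR 1.76e-04), from 937 ± 57.6 to 1553 ± 125 CPM (SD, n = 5). *Vav3* (0.48, FDR 0.0240) and *Dock1* (0.44, FDR 0.00110), both activators of small GTPases, rose as well. *Elmo1*, the partner of DOCK proteins, fell by 0.28 (FDR 0.0232) and *Abca7*, a lipid transporter, by 0.26 (FDR 0.0273). *Calr*, whose product marks dying cells for uptake through LRP1, was the most abundant with a log2 fold change of 0.11 (FDR 0.395). With the block, 5 of the 16 were higher and 5 lower, beside 16.8% and 18.3% of all tested genes.

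Among 15 other scavenger receptors, 10 were tested, 3 rose and none fell, with a median log2 fold change of 0.042. *Mrc1*, the mannose receptor, rose by 1.16 (SE 0.315, FDR 0.0320), and it is also one of the border-associated macrophage markers given above. *Cd68*, a lysosomal glycoprotein of macrophages, rose by 0.58 (FDR 0.00155), from 617 ± 67.9 to 921 ± 74.4 CPM (SD, n = 5), and *Scarb2*, a lysosomal receptor, by 0.29 (FDR 0.0372). *Clec7a*, the beta-glucan receptor Dectin-1, was the most abundant and did not pass (log2 fold change -0.15, FDR 0.468).

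Of 15 other lipoprotein receptors and their regulators, 12 were tested, 3 rose and 2 fell, with a median log2 fold change of -0.0052. *Lrp12* (0.66, FDR 0.00238) and *Sort1*, a sorting receptor (0.64, FDR 0.00553), rose, as did *Lrp6*, a co-receptor of Wnt signals (0.29, FDR 0.0421). *Sorl1*, the most abundant of these genes, fell by 0.37 (FDR 0.0385), from 228 ± 23.5 to 177 ± 26.6 CPM (SD, n = 5). *Lrp1* therefore rose beside relatives that changed in both directions.

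Of 6 genes of signals that restrain uptake, 4 were tested, and *Cd24a*, a ligand of an inhibitory Siglec receptor, rose by 0.75 (FDR 0.00914). *Sirpa*, the receptor of CD47, was the most abundant with a log2 fold change of 0.090 (FDR 0.433), and the median of the list was 0.128. Of 10 nuclear receptors and Maf factors, 9 were tested, and *Rxra*, the partner of the lipid-sensing nuclear receptors, rose by 0.55 (FDR 3.92e-04), with a median of 0.216 over the list. With the animal as a block, 2 of the 4 restraining signals and 5 of the 9 factors were higher, and 1 factor was lower. The shares over all tested genes were 16.8% higher and 18.3% lower.

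**Figure D5:**
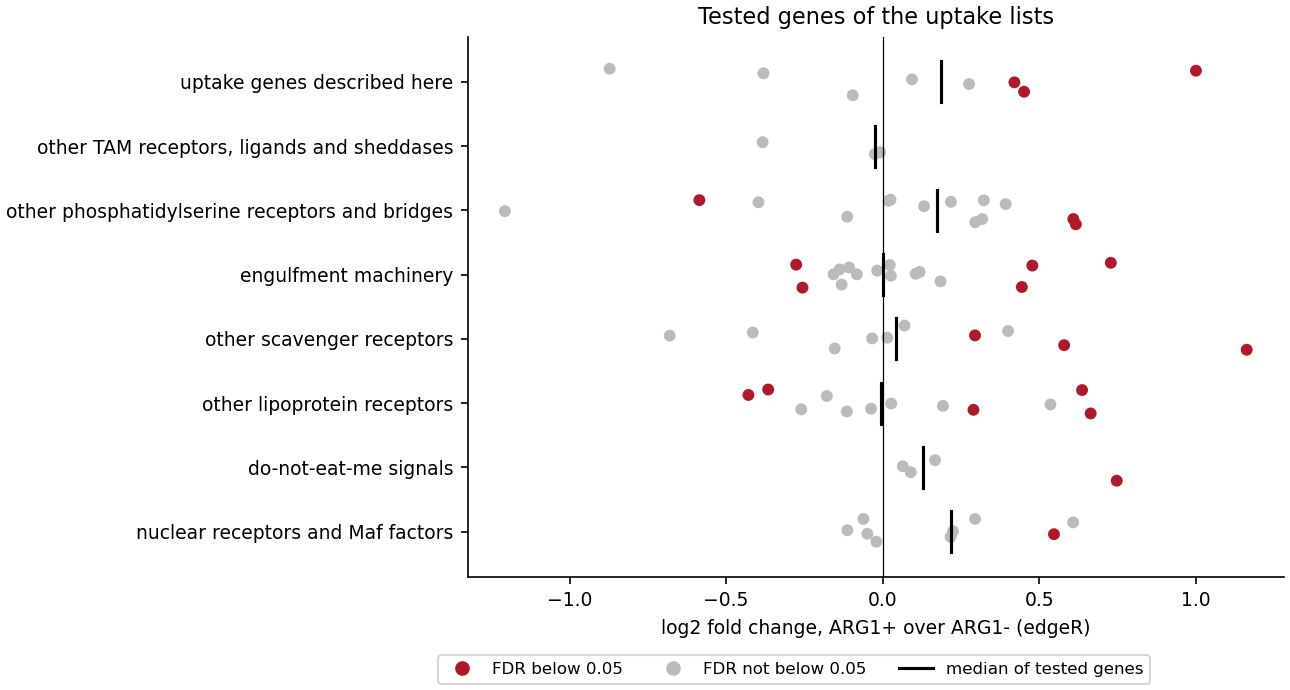
Log2 fold change of ARG1+ over ARG1- cells (x axis) of each tested gene (point) in the 9 genes described and 7 lists of related genes, red where the FDR was below 0.05, with the median of each list as a black bar. Called genes lie on both sides of 0 in the lists of phosphatidylserine receptors, engulfment machinery and lipoprotein receptors, and the medians run from -0.025 to 0.216.

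The tested genes whose pattern over the 10 libraries was most like that of each called gene were found by the root mean square difference of their standardised log2 CPM, where 0 is an identical pattern. They were picked by likeness to a called gene in the same libraries, so an FDR below 0.05 among them is no separate result. For *Lrp1* they were *Gga1* (0.175), *Ftl1* (0.207) and *Fmn1* (0.225), all with an FDR below 0.05. *Gga1* encodes an adaptor of vesicle sorting, *Ftl1* the ferritin light chain and *Fmn1* a formin. For *Mfge8* they were *Wsb2* (0.184), *Tmem250-ps* (0.201) and the tetraspanin *Tspan4* (0.245), all with an FDR below 0.05. For *Mertk* the nearest genes lay farther away, with *Dgcr6* (0.286), *Tmem86a* (0.300) and *Tmem254c* (0.318), and *Dgcr6* and *Tmem254c* did not pass the test (FDR 0.0831 and 0.0942). *Tmem254c* has near-identical copies, so its counts are uncertain.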

How the data were processed

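The counts were made by the authors and deposited as whole numbers per Ensembl gene, without normalization. Per the labels and methods, strand-specific libraries were read as 50-base single ends, aligned to GRCm38 with STAR (2.7.10b in the submitters' processing notes) and counted with summarizeOverlaps in Union mode on the basic annotation of Ensembl release 100. The sources used here do not say whether strand was used in counting. In the basic GENCODE vM21 annotation, no exon of the 9 genes overlapped an exon of another gene.

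Counts were tested with edgeR 4.0.16 (R 4.3.3), quasi-likelihood, TMM library sizes, CPM above 1 in at least 3 libraries, no block, FDR below 0.05, and in addition an absolute log2 fold change above 1. The methods name the same filter and limits with limma-trend. CPM use TMM library sizes. Exon lengths came from the basic GENCODE vM21 annotation of GRCm38. Alternatives were limma-trend (limma 3.58.1, prior count 2), DESeq2 1.42.0, other library sizes and filters, a replicate block for the animal, and fits without single libraries or animals. The titles name the animal, and residuals from group means correlated across genes at 0.383 to 0.679 within an animal and at most 0.0744 between animals. The tests were tried on simulated counts, drawn without likeness between libraries of the same animal and with larger changes than most genes here show. This trial therefore does not cover the paired libraries or small changes. The smallest library had 8.51 counts per CPM, the others at least 28.0.

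The genes, lists and tests were chosen with earlier results of these data known. Named are the 9 genes, *Arg1*, from each list the most abundant gene and up to 2 called genes per direction with the largest change, and 3 genes of most similar pattern. Of the genes that this rule names, some are not reported here. *Dock1*, *Scarb2*, *Lrp6*, *Tyro3* and single markers were named after their values were seen.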

Additional observations from a re-analysis of the deposited data

Results flagged for a closer look

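Of 18 groups of 5 libraries checked for a library far from the others (the 8 tested genes and *Arg1* in each sort), 1 had such a library. *Arg1* in ARG1- cells was 26.9 CPM in m2, beside 17.9 CPM in the next library, a gap of 0.718 of the whole range where the limit is 0.71. Chance alone passes this limit in about 1 in 20 groups.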

How the results depend on the processing

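*Mfge8* and *Lrp1* kept an FDR below 0.05 in all 8 alternatives of scaling, filter, test and block and in all 15 fits without a library or an animal, and *Mertk* in all 8 and in 5 of 15. With the replicate block, 6 of the 8 genes were called, 2 of them lower (*Axl* -0.39, *Gas6* -0.79, and *Msr1* higher at 0.29), beside 2307 higher and 2519 lower genes in all. Under it 7 phosphatidylserine receptors and bridges were higher and 2 lower, 5 genes of the engulfment machinery were higher and 5 lower, 2 restraining signals were higher, and 5 nuclear receptors and Maf factors were higher and 1 lower. DESeq2 called *Axl* lower (-0.38), 1 lower gene of the 8 and 1307 lower genes in all, and library totals without scaling gave 1281 lower genes. The number past both limits was 0 in place of 1 with RLE size factors, library totals and limma-trend, since *Mfge8* lies at the fold limit. The median of all genes moved by less than 0.1 under each scaling.

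Without single libraries or animals, 2 to 3 genes were called, 2 to 3 of them higher and 0 lower, and 0 to 1 passed both limits. All genes called higher ran from 360.0 to 1037 and lower from 284 to 911, lowest without both libraries of m6. The log2 fold changes ranged from 0.33 to 0.52 for *Mertk*, 0.91 to 1.10 for *Mfge8*, 0.38 to 0.49 for *Lrp1*, -0.46 to -0.29 for *Axl*, -1.10 to -0.56 for *Gas6*, 0.14 to 0.37 for *Msr1*, -0.13 to -0.063 for *Scarb1* and -0.062 to 0.197 for *Olr1*, which was reversed without the ARG1+ library of m2. The cause of these changes was not tested. Each fit without a library also has fewer samples. The p-values without the block treat both libraries of a mouse as independent samples. Those with the block rest on the spread of the differences within these mice. With 5 animals and no unimmunized controls, the results cover these mice at peak disease only.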
